A study of Homo sapiens with 12 samples.

Results

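Ion channels, water channels and gap junction genes were examined in Hep3B xenograft tumours with and without bufotalin. Members were all genes of the deposited mRNA table whose symbol began with the stem of a potassium (KCN), calcium (CACN, ORAI, STIM), sodium (SCN, SCNN), chloride or anion (CLCN, CLIC, ANO, LRRC8) or non-selective cation channel (TRPC, TRPM, TRPV, P2RX, PIEZO), of a P2RY receptor, of a connexin (GJA, GJB, GJC) or of an aquaporin (AQP). The rule took 47 of 4988 genes. They were 11 potassium, 7 calcium entry, 4 sodium, 12 chloride and anion, 5 non-selective cation, 3 P2RY, 3 connexin and 2 aquaporin genes. The P2RY genes encode G protein-coupled nucleotide receptors, which are not channels, and several KCN, CACN and SCN members encode accessory subunits without a pore. RefSeq lists 246 protein-coding genes that match the rule. The authors selected the table as different on these same libraries, so the other channel genes were not analysed here.

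Hep3B is a human hepatocellular carcinoma line, and bufotalin is a cardiotonic steroid of toad venom. The labels call every sample a xenograft of Hep3B, while the series title speaks of cells. The control group and the bufotalin group had 3 total RNA libraries each, and the sources used here give neither host, dose and duration nor what the controls received. Nothing in the labels says that replicates came from separate animals, so p-values measure the spread between these libraries, which may be technical. In bulk tumour RNA, fewer cells of a type and less RNA per cell cannot be told apart.

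Channels let ions or water pass down their gradients, and the sodium pump builds the sodium and potassium gradients that many of them use. Cardiotonic steroids bind and inhibit that pump. Tandem-pore potassium channels carry leak currents that set the resting potential. Chloride channels and exchangers serve cell volume and the acidity of endosomes and lysosomes, and connexins join neighbouring cells into gap junctions.

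Promoter windows from RefSeq (GRCh38.p14) were found for 28 of the 47 members, each running from 250 bases before to 50 after the gene start. The windows of 3 genes that rose and 3 that fell in the comparison are shown, as examples of both directions among genes with 1 window each. Capitals mark the E-box CACGTG and the GC box GGGCGG or its reverse complement CCGCCC. Sequences run 5′ to 3′ on the strand of the gene.
KCNK1: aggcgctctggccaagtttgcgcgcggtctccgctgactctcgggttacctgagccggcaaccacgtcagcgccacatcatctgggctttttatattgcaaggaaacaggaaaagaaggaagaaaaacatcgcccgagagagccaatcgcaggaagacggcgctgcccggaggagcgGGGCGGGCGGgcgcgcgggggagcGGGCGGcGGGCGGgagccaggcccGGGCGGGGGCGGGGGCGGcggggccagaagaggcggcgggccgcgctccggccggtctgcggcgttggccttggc
KCNK5: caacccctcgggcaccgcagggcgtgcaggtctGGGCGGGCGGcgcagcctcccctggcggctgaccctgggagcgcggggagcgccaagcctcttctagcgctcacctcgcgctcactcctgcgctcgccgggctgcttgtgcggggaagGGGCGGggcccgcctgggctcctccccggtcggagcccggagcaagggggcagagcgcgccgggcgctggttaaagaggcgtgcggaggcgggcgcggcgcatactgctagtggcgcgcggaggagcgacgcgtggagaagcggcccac
CLCN7: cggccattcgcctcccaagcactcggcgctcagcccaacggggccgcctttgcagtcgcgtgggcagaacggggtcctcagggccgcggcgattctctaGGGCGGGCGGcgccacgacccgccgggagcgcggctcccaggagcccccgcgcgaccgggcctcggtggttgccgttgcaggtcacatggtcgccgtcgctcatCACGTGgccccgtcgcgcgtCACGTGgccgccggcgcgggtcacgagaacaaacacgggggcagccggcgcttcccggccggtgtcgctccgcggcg
GJB2: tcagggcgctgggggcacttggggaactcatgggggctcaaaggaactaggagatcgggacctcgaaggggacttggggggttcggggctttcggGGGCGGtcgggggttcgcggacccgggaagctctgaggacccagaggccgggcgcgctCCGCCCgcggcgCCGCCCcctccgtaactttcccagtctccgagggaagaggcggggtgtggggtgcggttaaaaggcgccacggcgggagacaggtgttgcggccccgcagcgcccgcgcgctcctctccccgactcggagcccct
TRPM4: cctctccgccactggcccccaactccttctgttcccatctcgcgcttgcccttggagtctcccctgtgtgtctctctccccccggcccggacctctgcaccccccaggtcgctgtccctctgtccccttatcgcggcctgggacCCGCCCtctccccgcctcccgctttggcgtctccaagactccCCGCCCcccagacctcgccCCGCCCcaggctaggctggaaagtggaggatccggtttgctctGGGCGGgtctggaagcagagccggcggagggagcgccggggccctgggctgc
LRRC8B: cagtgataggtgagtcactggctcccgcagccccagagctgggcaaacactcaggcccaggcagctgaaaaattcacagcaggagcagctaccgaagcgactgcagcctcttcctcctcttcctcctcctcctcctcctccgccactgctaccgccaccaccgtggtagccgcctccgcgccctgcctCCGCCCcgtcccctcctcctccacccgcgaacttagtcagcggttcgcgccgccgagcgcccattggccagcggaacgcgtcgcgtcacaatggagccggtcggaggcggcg
The first 3 are a pair of tandem-pore potassium channels and a lysosomal chloride exchanger, which rose. The last 3 are a connexin, a cation channel and a subunit of the volume-regulated anion channel, which fell. The windows lie at chr1:233613856-233614155, plus strand (KCNK1), chr6:39229426-39229725, minus strand (KCNK5), chr16:1474979-1475278, minus strand (CLCN7), chr13:20192889-20193188, minus strand (GJB2), chr19:49157542-49157841, plus strand (TRPM4) and chr1:89524579-89524878, plus strand (LRRC8B).

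All 6 windows hold a GC box, which 44.95% of all 35116 RefSeq windows of the same length also hold. CpG dinucleotides number 38, 39 and 49 in the windows of the genes that rose, and 33, 21 and 28 in those of the genes that fell, against a median of 14 over all windows. Among members, CpG was counted in these 6 windows only, picked with their directions known, so no contrast between directions is read from it. Members were counted as genes, with a match in any window of the gene, while the shares over all windows are per window. Among members with a window, the GC box was found for 6 of 9 that rose and 8 of 10 that fell. The E-box was found for 3 of the 9, CLCN7, CLCN4 and KCNAB2, and for 0 of the 10, against 7.26% of all windows. It was also found for KCNN4, CACNA1B and TRPV3, which were not called or not tested. CLCN7 has 2 E-boxes. The motifs were chosen with the values known, and a match is a description of these letters only.

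The deposited values are FPKM, fragments per kilobase of gene scaled by library size, and depth in reads was unknown. Genes that averaged 0.5 FPKM or more over the 6 libraries were compared with limma on log2(FPKM + 1), and a gene was called at a Benjamini-Hochberg adjusted p under 0.05 over the whole table. This scale understates the fold change of low genes, so ratios of mean FPKM are given beside it. Errors after ± are SD over 3 libraries, values in sets of 3 are in the order of replicates 1, 2 and 3, and positions are on GRCh38. Library sums of the table were 102677 to 105803 FPKM in control and 114207 to 121337 FPKM in bufotalin libraries. Library medians were 7.80 to 8.08 FPKM in control and 6.10 to 6.26 FPKM in bufotalin libraries. Genes listed at 0 numbered 90 to 100 in control and 184 to 224 in bufotalin libraries, so the distributions differed between the groups. Of 17 hepatocyte and Hep3B markers, 2 were in the selected table, each averaging under 0.5 FPKM, so the label of the cells cannot be checked from it.

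Of the 47 members, 32 reached the minimum. Limma called 30 of these 32 (93.8%), 10 higher and 20 lower with bufotalin, against 93.2% of all 4273 tested genes. The higher members were 31.2% of those tested and the lower ones 62.5%, against 44.3% and 48.8% of all tested genes. Changes of at least 2-fold on the fitted scale were seen for 5 higher and 11 lower members, 15.6% and 34.4%, against 7.14% and 25.9% in the table. The median log2 fold change was -0.79 for the members and 0.13 for all tested genes. The groups did not overlap for 31 of the 32, against 92.5% in the table. The shares called and not overlapping were close to those of the whole table, which the authors had selected for difference.

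Scaling moved the split. Under quantile normalization, which makes the library distributions equal, 10 members were called higher and 11 lower (47.6% higher, against 33.3% of called members in the main comparison), with a member median of -0.12. The same setting called 50.9% of called genes higher in the whole table, against 47.6%. With libraries scaled to equal medians, 12 members were higher and 19 lower, and the median of all tested genes went from 0.13 to 0.31. Omitting single libraries gave 10 or 11 higher and 18 to 21 lower members, with member medians of -0.85 to -0.74. The median of all tested genes was less stable. It was 0.16 to 0.18 without a control library and -0.27 to -0.06 without a bufotalin library. With no FPKM minimum it was -0.14, and the member median was -0.42.

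**Figure D1:**
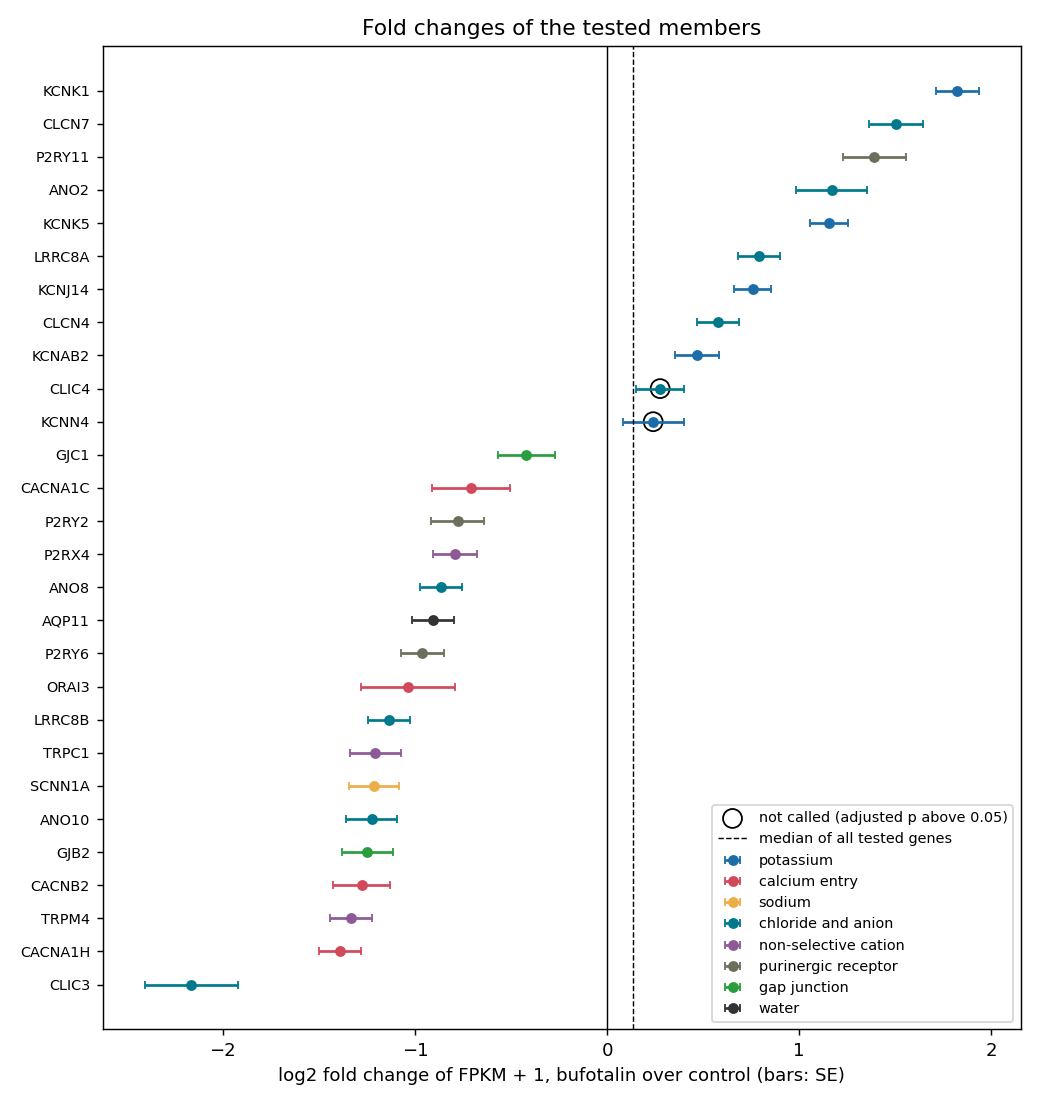
Fitted log2 fold change (bufotalin over control, FPKM + 1) of 28 of the 32 tested members, with SE bars and colours by class. The dashed line is the median of all tested genes, 0.13, which changed sign when any bufotalin library was omitted. Rings mark the 2 genes not called. KCNK1 at 1.82 is highest and CLIC3 at -2.16 lowest; under quantile normalization 9 of the 20 falls lost their call, 7 of them among the genes drawn.

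The 10 members that rose had control means of 0.746 to 45.5 FPKM (median 8.41), and the 20 that fell had a median of 3.24 FPKM. Over the whole table the medians were 12.1 FPKM for genes that rose and 8.22 FPKM for genes that fell. In bufotalin libraries the members that fell had a median of 1.03 FPKM. CLIC4, ANO2 and KCNK1 held 54.5% to 55.8% of the summed member FPKM in control libraries and 64.8% to 69.9% in bufotalin libraries. The rest of the members added up to 149 to 164 FPKM in control and 155 to 168 FPKM in bufotalin libraries, ranges that overlap.

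**Figure D2:**
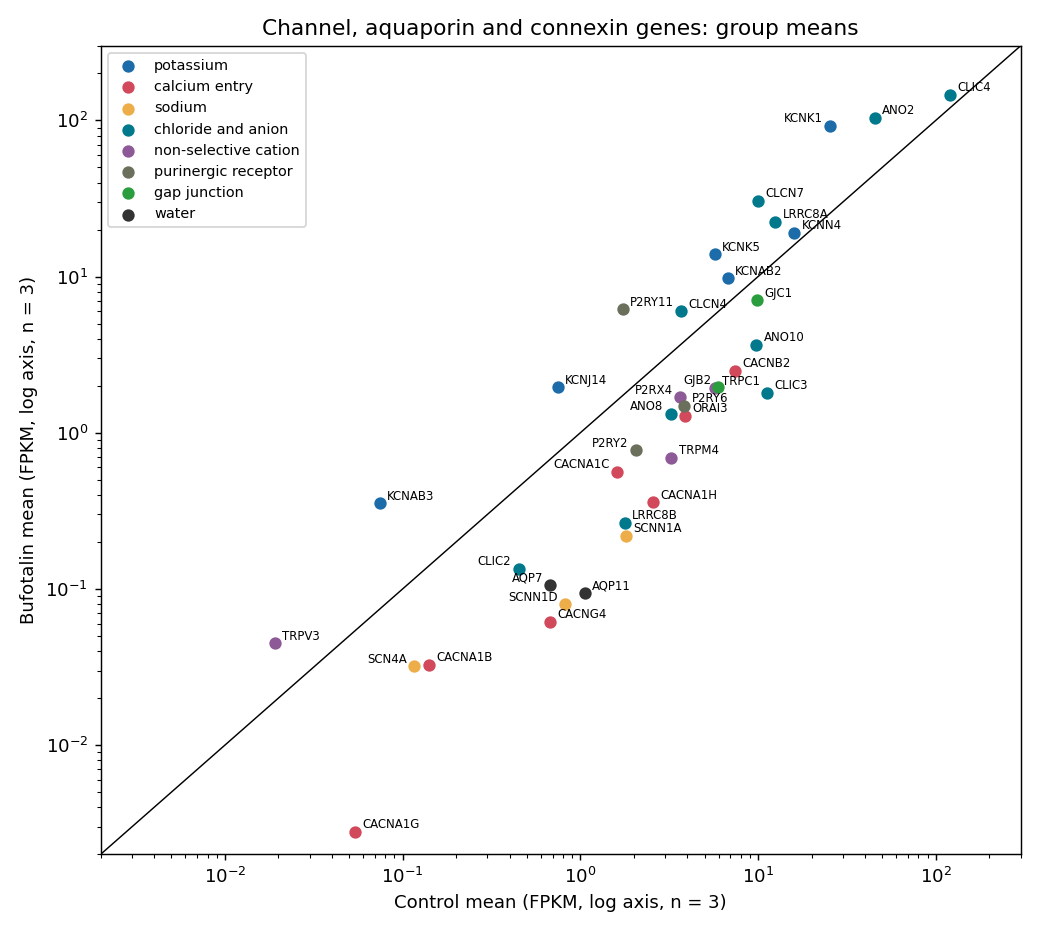
Mean FPKM in control (x) against bufotalin (y), 3 libraries each, log axes, for 37 of the 42 members with values above 0 in both groups; the line marks equal levels. CLIC4, ANO2 and KCNK1 lie at the top, and most members under 10 FPKM in control lie below the line, though the calls of 7 of those drawn were lost under quantile normalization.

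Among the 8 classes, potassium channels were the one in which more tested members rose than fell in the main comparison. Under quantile normalization, more were called higher than lower among chloride and anion genes and among P2RY genes as well. Of 6 tested potassium channel genes, 4 rose, 1 fell and 1 was not called, with a median log2 fold change of 0.61. In the whole table, 44.3% of tested genes were called higher and 48.8% lower. The potassium class summed to 54.4 to 60.2 FPKM in control and 129.5 to 149 FPKM in bufotalin libraries. KCNK1 (chromosome 1, 233614004 to 233672512), a tandem-pore leak channel, was 27.1, 23.2 and 26.2 FPKM in control libraries and 99.6, 90.7 and 87.6 FPKM in bufotalin libraries. All 3 bufotalin libraries were above all 3 control libraries, and the means differed 3.64-fold (fitted log2 fold change 1.82, SE 0.11, limma adjusted p 1.84e-06). KCNK5 (chromosome 6, 39188971 to 39229475), a tandem-pore channel opened by alkaline pH outside the cell, was 5.88, 5.47 and 5.72 FPKM in control libraries and 13.7, 14.1 and 13.8 FPKM in bufotalin libraries. The spread within each group was small, with means of 5.69 ± 0.207 to 13.9 ± 0.203 FPKM, a 2.44-fold rise (fitted log2 fold change 1.15, SE 0.10).

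KCNJ14 (chromosome 19, 48455509 to 48466980), an inward rectifier, rose 2.62-fold, from a lower level. Its libraries were 0.757, 0.706 and 0.776 against 1.96, 1.91 and 1.98 FPKM, with no overlap (fitted log2 fold change 0.76, SE 0.10, limma adjusted p 5.97e-05). Its locus overlaps that of GRWD1, a histone chaperone gene of ribosome biogenesis, which rose from 11.4 ± 0.899 to 20.2 ± 0.352 FPKM, and with strandedness not given, reads of the shared stretch cannot be assigned. KCNAB2, a cytoplasmic beta subunit of voltage-gated channels, rose from 6.78 ± 0.725 to 9.73 ± 0.584 FPKM (fitted log2 fold change 0.47, SE 0.11), and NPHP4, whose locus overlaps it, fell from 5.99 ± 1.32 to 2.52 ± 0.136 FPKM.

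KCNN4, the calcium-activated channel of intermediate conductance, had a mean over all libraries above that of KCNK5 and did not pass. It was 12.9, 17.0 and 18.1 against 22.6, 18.2 and 16.4 FPKM, with overlapping groups and limma adjusted p 0.167. Scaling to equal medians gave it 0.42 and a call.

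Calcium entry genes fell in all 4 tested cases, against 48.8% of all tested genes called lower. Their median log2 fold change was -1.16 (-0.51 under quantile normalization, where ORAI3 and CACNA1C lost their calls). The 7 members summed to 13.5 to 20.3 FPKM in control and 3.95 to 5.87 FPKM in bufotalin libraries. CACNA1H (chromosome 16, 1153106 to 1221771), the pore of a low-voltage-activated T-type channel, was 2.57, 2.79 and 2.30 FPKM in control libraries and 0.481, 0.284 and 0.313 FPKM in bufotalin libraries. The fall was 7.11-fold with no overlap (fitted log2 fold change -1.39, SE 0.11, limma adjusted p 4.75e-06). CACNB2 (chromosome 10, 18140677 to 18543557), a beta subunit that brings high-voltage-activated channels to the membrane, was 6.75, 6.67 and 8.94 FPKM in control libraries and 3.04, 2.13 and 2.28 FPKM in bufotalin libraries. Its mean went from 7.45 ± 1.29 to 2.48 ± 0.492 FPKM (fitted log2 fold change -1.28, SE 0.15).

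CACNA1C (chromosome 12, 1970786 to 2741988), the pore of an L-type channel, was 1.34, 1.00 and 2.49 FPKM in control libraries and 0.761, 0.339 and 0.593 FPKM in bufotalin libraries. Control replicate 3 was the highest, and the groups did not overlap (fitted log2 fold change -0.71, SE 0.20, limma adjusted p 0.00885, but -0.01 under quantile normalization). DCP1B, an mRNA decapping gene whose locus overlaps CACNA1C, fell from 3.24 ± 0.318 to 0.555 ± 0.290 FPKM, so the reads of the shared stretch cannot be assigned. ORAI3 (chromosome 16, 30949068 to 30956461), a pore subunit of store-operated calcium entry, was 2.09, 3.9997 and 5.57 FPKM in control libraries and 1.501, 1.09 and 1.25 FPKM in bufotalin libraries. Control libraries spread widely, with replicate 1 close to the bufotalin range (fitted log2 fold change -1.04, SE 0.25, limma adjusted p 0.00373, and -0.34 without a call under quantile normalization). The STIM genes, whose products sense calcium in the endoplasmic reticulum and open ORAI channels, were not analysed here.

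Both tested sodium channel genes fell, against 48.8% of all tested genes called lower, and 1 of them kept its call under quantile normalization. SCNN1A (chromosome 12, 6346843 to 6377813), the alpha subunit of the epithelial sodium channel, was 2.13, 1.60 and 1.72 FPKM in control libraries and 0.217, 0.0513 and 0.386 FPKM in bufotalin libraries. It fell 8.33-fold with no overlap (fitted log2 fold change -1.21, SE 0.13, limma adjusted p 2.26e-05). AC005840.1, whose locus overlaps SCNN1A, went the other way, from 25.3 ± 1.56 to 31.1 ± 1.69 FPKM, a call lost under quantile normalization (0.15) and on omitting control replicate 2, control replicate 3 or bufotalin replicate 1 (0.24 to 0.28). SCNN1D, the delta subunit of the epithelial channel, lay just under the minimum for testing, at 1.06, 0.616 and 0.794 against 0.103, 0.0411 and 0.0956 FPKM.

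**Figure D3:**
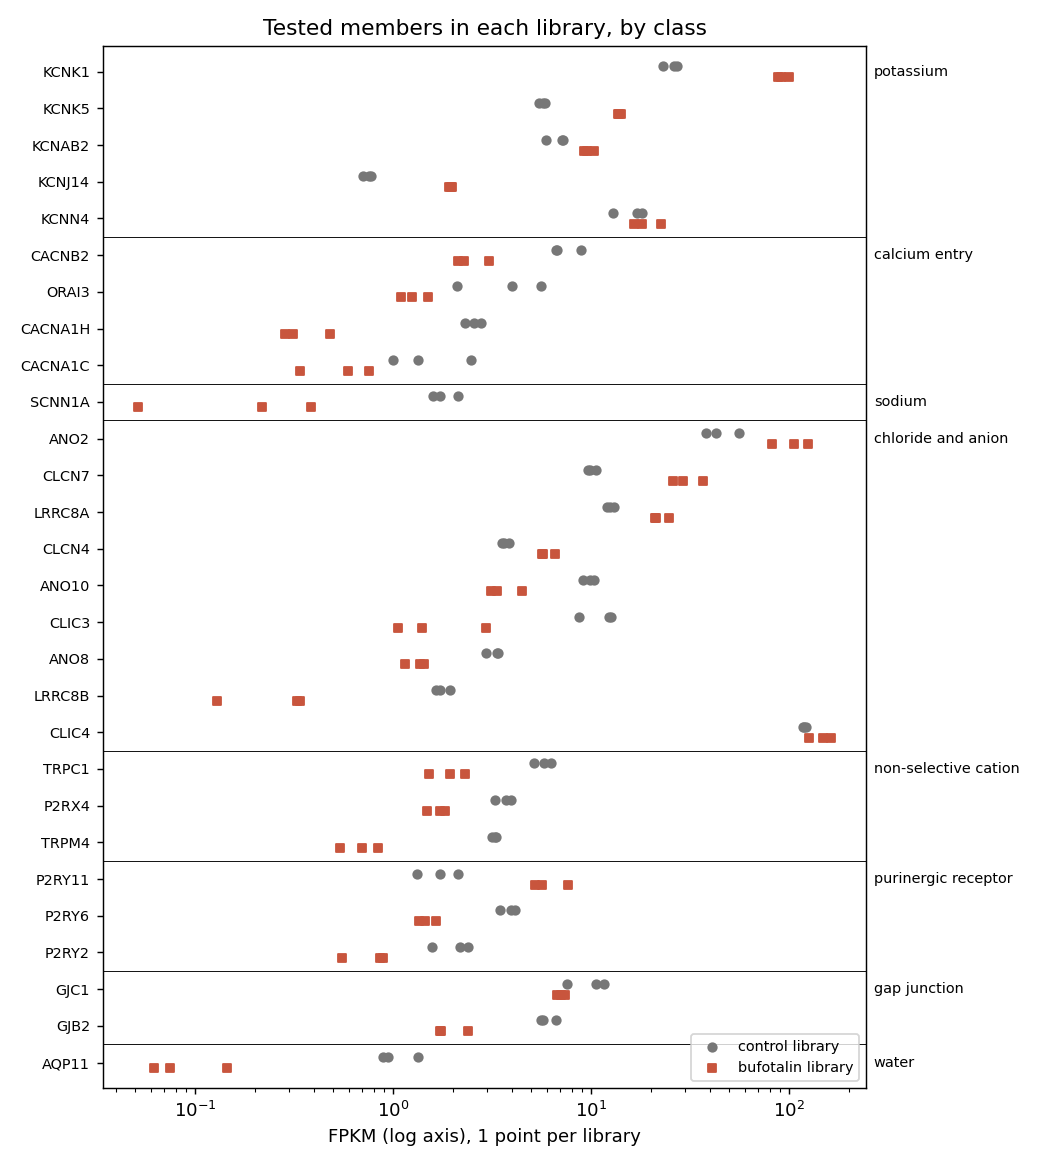
FPKM of 28 of the 32 tested members in each of the 6 libraries (log axis), by class: grey circles are control and red squares bufotalin libraries. KCNN4 overlaps between groups. In the other 27 genes drawn the groups separate, as they did for 92.5% of all 4273 tested genes. KCNK1 is higher with bufotalin (87.6 to 99.6 FPKM) and CLIC3 lower (1.06 to 2.94 FPKM), directions that these 2 genes kept under both scalings.

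Chloride and anion genes split. Of 10 tested, 4 rose, 5 fell and 1 was not called, against 44.3% of all tested genes called higher and 48.8% lower. Their median of -0.28 turned to 0.28 when the minimum was 1 FPKM. CLIC4 (chromosome 1, 24745382 to 24844321), a member of the chloride intracellular channel family that exists in soluble and membrane forms, had the highest level of all members, at 118, 122 and 119 FPKM in control libraries and 127, 164 and 148 FPKM in bufotalin libraries. The groups did not overlap, but limma gave an adjusted p of 0.0559 (fitted log2 fold change 0.28, SE 0.12). It was called without bufotalin replicate 1 (0.38) and with equal medians (0.47), and not under quantile normalization (0.05). CLIC3 (chromosome 9, 136994635 to 136996803), of the same family, was 12.3, 12.7 and 8.72 FPKM in control libraries and 2.94, 1.41 and 1.06 FPKM in bufotalin libraries. It fell 6.22-fold (fitted log2 fold change -2.16, SE 0.24, limma adjusted p 5.47e-05), the lowest log2 fold change of the tested members.

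CLCN7 (chromosome 16, 1444934 to 1475084) exchanges chloride for protons across the lysosomal membrane, and its window with 2 E-boxes is shown above. It was 10.6, 9.86 and 9.70 FPKM in control libraries and 25.8, 29.3 and 36.8 FPKM in bufotalin libraries. Every bufotalin library was above every control library, a 3.05-fold rise (fitted log2 fold change 1.504, SE 0.14, limma adjusted p 1.02e-05). CLCN4, an exchanger of endosomes, rose from 3.69 ± 0.149 to 5.997 ± 0.516 FPKM (fitted log2 fold change 0.58, SE 0.11; 1.07 under quantile normalization).

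Among anoctamins, ANO2 (chromosome 12, 5531496 to 5946232), a calcium-activated chloride channel best known from olfactory neurons, was 42.7, 37.9 and 55.7 FPKM in control libraries and 81.7, 105 and 124 FPKM in bufotalin libraries. The bufotalin libraries spread more than the controls, and all were higher (2.28-fold, fitted log2 fold change 1.17, SE 0.18, limma adjusted p 0.000278). ANO10 (chromosome 3, 43354859 to 43691594), which resides largely in intracellular membranes, was 9.89, 9.15 and 10.4 FPKM in control libraries and 3.35, 3.12 and 4.48 FPKM in bufotalin libraries. It fell 2.69-fold (fitted log2 fold change -1.23, SE 0.13). ANO8, a tether between the endoplasmic reticulum and the plasma membrane, fell from 3.23 ± 0.242 to 1.32 ± 0.154 FPKM (fitted log2 fold change -0.87, SE 0.11), with -0.14 and no call under quantile normalization. DDA1, whose locus overlaps ANO8, rose from 4.15 ± 0.642 to 8.74 ± 1.48 FPKM.

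LRRC8A and LRRC8B, the only subunits of the volume-regulated anion channel among the members, went opposite ways. LRRC8A (chromosome 9, 128882112 to 128918039), the subunit every such channel needs, was 12.0, 12.4 and 13.1 FPKM in control libraries and 24.7, 21.1 and 21.4 FPKM in bufotalin libraries. It rose 1.79-fold (fitted log2 fold change 0.79, SE 0.11, limma adjusted p 0.000112). LRRC8B (chromosome 1, 89524836 to 89597864), one of its partner subunits, was 1.65, 1.74 and 1.94 FPKM in control libraries and 0.129, 0.341 and 0.328 FPKM in bufotalin libraries. It fell 6.66-fold (fitted log2 fold change -1.13, SE 0.11; -0.49 and still called under quantile normalization). In mean FPKM, LRRC8A was above LRRC8B in both groups, and neither gene overlapped between the groups. The library values of this pair are shown for their opposite directions, chosen after the values were seen.

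Non-selective cation channel genes fell in all 3 tested cases, against 48.8% of all tested genes called lower. Their median was -1.21 (-0.60 under quantile normalization, where P2RX4 was not called). TRPM4 (chromosome 19, 49157741 to 49211836), opened by intracellular calcium and permeable to monovalent cations, was 3.27, 3.17 and 3.33 FPKM in control libraries and 0.844, 0.696 and 0.540 FPKM in bufotalin libraries. Control libraries lay close together, and bufotalin libraries were 4.70-fold lower on average (fitted log2 fold change -1.33, SE 0.11, limma adjusted p 5.61e-06). TRPC1 (chromosome 3, 142724034 to 142807888), a canonical TRP subunit that takes part in receptor- and store-operated cation entry, was 5.13, 5.76 and 6.27 FPKM in control libraries and 1.94, 1.53 and 2.30 FPKM in bufotalin libraries. It fell 2.97-fold (fitted log2 fold change -1.21, SE 0.13). P2RX4 (chromosome 12, 121209857 to 121234106), an ATP-gated cation channel, was 3.29, 3.93 and 3.73 FPKM in control libraries and 1.49, 1.83 and 1.73 FPKM in bufotalin libraries. The groups did not overlap (fitted log2 fold change -0.79, SE 0.11, limma adjusted p 0.000133), and under quantile normalization it had -0.11.

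The lncRNA table held 1 transcript of a member, TRPM4-207, among 536. It was 0.00498, 1.17 and 0.00512 FPKM in control libraries and listed at 0 in all bufotalin libraries, so control replicate 2 alone held nearly all of it. limma on log2(FPKM + 0.1) did not call it (log2 fold change -1.27, SE 1.07, adjusted p 0.291), against 73.3% called of 465 tested transcripts.

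The P2RY receptors sense extracellular nucleotides. P2RY2 (chromosome 11, 73218298 to 73236352), activated by ATP and UTP, was 1.57, 2.39 and 2.18 FPKM in control libraries and 0.555, 0.865 and 0.892 FPKM in bufotalin libraries. P2RY6 (chromosome 11, 73264505 to 73298617), activated by UDP, was 4.12, 3.95 and 3.49 FPKM in control libraries and 1.36, 1.45 and 1.65 FPKM in bufotalin libraries. Both fell (-0.78 and -0.96), but quantile normalization left them at -0.04 and -0.27 and neither was called. They lie 28153 bases apart and moved the same way. P2RY11 (chromosome 19, 10111693 to 10115372), activated by ATP, was 1.72, 1.32 and 2.14 FPKM in control libraries and 5.68, 7.67 and 5.20 FPKM in bufotalin libraries. It rose 3.58-fold (fitted log2 fold change 1.39, SE 0.16, limma adjusted p 3.80e-05). Its locus overlaps PPAN, a ribosome biogenesis gene that rose from 14.6 ± 3.09 to 23.5 ± 3.03 FPKM, the PPAN-P2RY11 readthrough, which rose from 1.18 ± 0.417 to 2.87 ± 1.18 FPKM (no call without bufotalin replicate 1 or 3), and EIF3G, a translation initiation factor gene that did not pass (0.21). The values of P2RY11 are therefore uncertain where reads of these genes could be shared.

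Of 3 tested connexin genes, 2 fell, against 48.8% of all tested genes called lower. GJB2 (chromosome 13, 20187463 to 20192938), which hepatocytes are known to express, was 5.58, 5.74 and 6.63 FPKM in control libraries and 1.74, 1.72 and 2.40 FPKM in bufotalin libraries. It fell 3.06-fold (fitted log2 fold change -1.25, SE 0.13, limma adjusted p 2.02e-05). GJC1 (chromosome 17, 44798448 to 44830816), a gamma connexin of the heart and vessels, was 7.53, 10.6 and 11.6 FPKM in control libraries and 7.04, 7.41 and 6.74 FPKM in bufotalin libraries. Control replicate 1 lay close to the bufotalin libraries. The call (fitted log2 fold change -0.42, SE 0.15, limma adjusted p 0.0231) was lost under both scalings, and also when control replicate 2, control replicate 3, bufotalin replicate 1 or bufotalin replicate 3 was omitted (range over the 6 omissions -0.59 to -0.30).

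The 1 aquaporin gene tested fell. AQP11 (chromosome 11, 77589391 to 77610355), an aquaporin of intracellular membranes, was 0.943, 0.894 and 1.34 FPKM in control libraries and 0.146, 0.0750 and 0.0624 FPKM in bufotalin libraries. It fell 11.2-fold (fitted log2 fold change -0.91, SE 0.11, limma adjusted p 4.95e-05), but without control replicate 3 its mean was under the minimum. AQP7, which passes glycerol as well as water, was 0.677, 0.701 and 0.660 against 0.125, 0.0722 and 0.120 FPKM, just under the minimum for a test.

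The other 13 untested members were lower still. Of all 15 untested members, 12 had lower and 3 higher means with bufotalin, and in 14 the groups did not overlap. The same shares were not counted for the other genes under the minimum, so these counts are not read as particular to the members. With no minimum, limma called 11 members higher and 29 lower of all 47, against 1984 higher and 2472 lower of 4988 genes. CACNG4, an accessory gamma subunit, was 0.626, 0.598 and 0.795 against 0.0367, 0.0694 and 0.0781 FPKM, and CLIC2 0.423, 0.536 and 0.389 against 0.188, 0.127 and 0.0909 FPKM. KCNAB3, a beta subunit like KCNAB2, was 0.116, 0.0502 and 0.0577 against 0.336, 0.481 and 0.244 FPKM. CACNA1B, the N-type channel pore, was 0.105, 0.0771 and 0.241 against 0.0384, 0.0345 and 0.0251 FPKM, and CACNA1G, a T-type pore, 0.0407, 0.113 and 0.00845 against 0.00384, 0 and 0.00453 FPKM. SCN4A, the skeletal muscle sodium channel, was 0.163, 0.0894 and 0.0944 against 0.0109, 0.0639 and 0.0210 FPKM.

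Some members were listed at 0 in a whole group. KCNIP4, an accessory subunit of voltage-gated potassium channels, was 0.297, 0.154 and 0.232 FPKM in control and listed at 0 in bufotalin libraries. KCNU1, the sperm potassium channel, was 0.203, 0.276 and 0.203 FPKM in control, KCNF1, an electrically silent subunit, 0.0153, 0.0394 and 0.0555 FPKM, and P2RX6, an ATP-gated subunit, 0.0230, 0.186 and 0.0258 FPKM, all listed at 0 with bufotalin. KCNJ2, an inward rectifier, was listed at 0 in control and 0.00613, 0.00664 and 0.0221 FPKM in bufotalin libraries. TRPV3, a heat-activated channel of keratinocytes, was 0.0163, 0.0410 and 0 against 0.0345, 0.0431 and 0.0570 FPKM, the 1 untested gene whose groups overlapped. No fold is given at these levels.

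**Figure D4:**
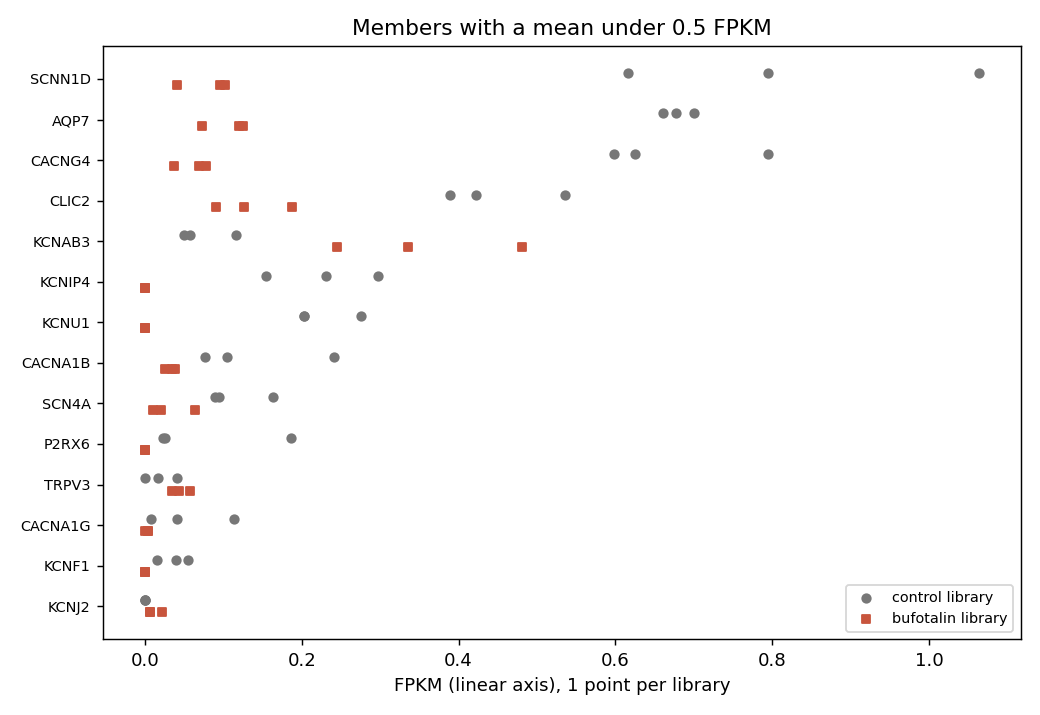
FPKM (linear axis) of 14 of the 15 members with a mean under 0.5 FPKM in each library: grey circles are control and red squares bufotalin libraries. In 11 of these 14 the mean is lower with bufotalin, a share not counted for the other genes under 0.5 FPKM. KCNAB3, TRPV3 and KCNJ2 are the exceptions, and none of these genes entered the main test.

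Channels outside the name rule were described from a further list of 140 genes, of which 30 were in the table and 23 reached the minimum. Of these, 10 rose, 12 fell and 1 was not called, with a median of -0.64, against 44.3% of all tested genes called higher and 48.8% called lower. Quantile normalization left 10 higher and 10 lower. The strongest were PANX2, a pannexin, which fell from 2.85 ± 0.616 to 0.411 ± 0.0950 FPKM (fitted log2 fold change -1.44, SE 0.13), and NALCN, a sodium leak channel, which fell from 1.82 ± 0.375 to 0.106 ± 0.0467 FPKM (fitted log2 fold change -1.34, SE 0.12). MCOLN1, the lysosomal cation channel mucolipin, rose from 4.29 ± 0.232 to 12.4 ± 1.12 FPKM (fitted log2 fold change 1.34, SE 0.11). RYR1, a calcium release channel of the sarcoplasmic reticulum, fell from 10.8 ± 1.99 to 3.87 ± 0.313 FPKM (fitted log2 fold change -1.26, SE 0.14). Other lysosomal genes of that list, chosen after their values were seen, went both ways beside CLCN7. OSTM1, the beta subunit of the CLCN7 exchanger, rose from 4.71 ± 0.342 to 8.69 ± 0.640 FPKM (fitted log2 fold change 0.76, SE 0.11), while TPCN2, a lysosomal cation channel, fell from 2.64 ± 0.0890 to 0.604 ± 0.159 FPKM (fitted log2 fold change -1.19, SE 0.11). PANX1 rose from 9.74 ± 2.20 to 16.1 ± 3.41 FPKM (0.67), against the fall of PANX2. RYR2, also chosen after its values were seen, rose from 0.433 ± 0.0528 to 1.94 ± 0.174 FPKM (1.03), against the fall of RYR1.

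A list of 69 channel regulators and partners had 18 genes in the table and 16 tested, of which 4 rose and 12 fell (median -0.91). Over all tested genes 44.3% were called higher and 48.8% lower, 93.2% in either direction. Under quantile normalization 4 were called higher and 8 lower, and AKAP7, HOMER2, JPH2 and PRSS8, named for this loss, were not called. SGK2, a kinase that regulates epithelial channels, fell from 3.16 ± 0.766 to 0.125 ± 0.106 FPKM (fitted log2 fold change -1.88, SE 0.14). TSPAN13, a tetraspanin, fell from 21.1 ± 2.74 to 7.01 ± 0.528 FPKM (-1.46), and HOMER3, a scaffold, from 11.8 ± 1.51 to 4.25 ± 0.462 FPKM (-1.28). Around SCNN1A, whose product is removed by the ubiquitin ligase NEDD4L, NEDD4L rose from 10.4 ± 1.14 to 17.0 ± 1.28 FPKM. The kinase SGK1, which restrains NEDD4L, rose from 26.7 ± 5.47 to 45.3 ± 6.03 FPKM. NEDD4L and SGK1 were chosen after their values were seen, and SGK2 and PRSS8 of the same list fell. These are RNA values, and a link to the fall of SCNN1A was not tested.

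Markers of other cell types moved beside these results. Values are on GRCh38 and the host is not given, so tumour and host cells cannot be told apart as their source. Of 12 fibroblast markers, 8 were in the table and 7 were tested. All 7 fell, against 48.8% of all tested genes called lower. Under quantile normalization, however, PDGFRB had 0.0944 and ACTA2 lost its call. The 8 summed to 84.2 to 88.7 FPKM in control and 23.9 to 29.8 FPKM in bufotalin libraries. Of 6 endothelial markers, EGFL7 fell and CDH5 rose, with sums of 32.2 to 33.7 and 8.46 to 10.6 FPKM. The 1 leukocyte marker in the table, CSF1R, rose (3.14 to 3.41 against 3.97 to 6.09 FPKM). Of 7 erythroid and muscle markers, DES fell and HBB was not called (sums of 2.06 to 15.2 and 0.392 to 0.633 FPKM). HBB was 0.537, 0.470 and 13.4 FPKM in control libraries, so control replicate 3 alone set the upper end of the control sums. Of 5 neural markers, MBP rose and SNAP25 fell (7.76 to 8.20 and 9.79 to 10.9 FPKM). None of these 15 genes was at 0 throughout a group. Their part in the falls of CACNA1C, CACNB2, TRPC1, GJC1 and the other members was not tested.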

How the data were processed

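The data were 3 control and 3 bufotalin total RNA libraries, labelled as xenograft. Per the labels, the authors deposited FPKM values per gene (mRNA) and per transcript (lncRNA), for features selected as different on these libraries. The submitters' processing notes name CASAVA 1.8, fastp, HISAT2 2.0.5, featureCounts 1.5.0-p3, DESeq2 1.20.0 and GRCh38; which tool made these values, the selection rule and strandedness are not given in the sources used here. In the small RNA table there is no channel gene, and it was not used. Of 1737 between-library ratios of values under 0.1 FPKM, no more than 9 (of 231) matched to 3 decimals within any pair of libraries; whole reads were therefore not recovered and depth is unknown.

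limma 3.58.1 (R 4.3.3; trended, robust eBayes, two-sided, Benjamini-Hochberg) was run on log2(FPKM + 1) with genes averaging 0.5 FPKM or more, and on log2(FPKM + 0.1) with transcripts averaging 0.1 FPKM or more. The fit was tested on simulated data. All 47 members matched the gene reference by Ensembl identifier. Library values are given, per class, for the most abundant member and up to 4 called members with the largest absolute log2 fold change and no overlap; up to 4 called genes are named from each further list. Results for some genes that these rules select are not reported here, and those genes are counted but not drawn. Members and lists were chosen with earlier results of these data known. Figures used Python 3.11.15, pandas 2.3.3, numpy 2.4.6 and matplotlib 3.10.9.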

Additional observations from a re-analysis of the deposited data

How the results depend on the processing

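Of 30 called members, 21 kept direction and call in every setting that tested them, 9 lost the call under quantile normalization, and 1 of these (GJC1) also with a library left out. Under quantile normalization 1 member called lower changed sign, TMC7 (further channel list) turned to 0.0649, PDGFRB (fibroblast marker) to 0.0944 and EIF3G (overlapping P2RY11, not called) to -0.0629. That setting called 11 members lower in place of 20, and 1 sodium, 2 calcium entry and 1 P2RY gene. With no FPKM minimum, 4 sodium, 8 potassium and 2 aquaporin genes were called, and at a minimum of 1 FPKM, 1 sodium and 0 aquaporin genes; fewer or more genes were tested there. With each library left out in turn, 1 to 3 sodium and 0 to 1 aquaporin genes were called, the lowest values without control replicate 1 (sodium) and control replicate 3 (aquaporin). A pseudocount of 0.1 changed no member's call but moved low genes, with SCNN1A at -2.74 and AQP11 at -2.58; eBayes without trend and robust changed no member's call either. The replicate number as a block gave the same 10 higher and 20 lower members and changed no member's call; the correlation of same-numbered libraries was -0.05 to 0.03, so the numbers are not taken as pairs. The cause of the losses under quantile normalization was not tested. Depth is unknown, so the precision of members under 0.5 FPKM cannot be given.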
